A study of Mus musculus with 19 samples.

Results

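Ces1d encodes a carboxylesterase, and its RNA is described here through 1 transcript, ENSMUST00000034172.7, out of 96626 transcripts listed for each library and 43256 that were tested. The transcript was chosen because its level fell with aortic banding in control hearts and did not do so to a like extent in hearts carrying a transgene. The values of the 4 groups and their contrasts chose it, so they are given as a description, without tests. The deposited tables give transcript IDs only. The pairing of this ID with Ces1d comes from the rule that defined it, and 0 of the 96626 IDs matched the gene tables used here.

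The 12 libraries hold polyadenylated RNA from the left ventricle of mice, in 4 groups of 3. JP2NT-OE mice carry an HA-tagged transgene for JP2NT, a piece from the N-terminal end of junctophilin-2. The α-MHC promoter, a driver for heart muscle cells, drives it, and littermates lacking the transgene are the controls. Banded (TAB) males had the transverse aorta narrowed at 9 weeks of age and were sampled 3 weeks later. Baseline mice of both genotypes were littermates without surgery, sampled at the same age of 12 weeks, so load and operation cannot be told apart. Nothing in the labels says that each replicate was a separate mouse, so errors measure the spread between libraries. The 7 chromatin immunoprecipitation samples were not analysed here.

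Carboxylesterases of the Ces1 family split ester bonds in lipids and in many drugs, and many of them are enzymes of the endoplasmic reticulum. Ces1d, formerly named Ces3 and also known as triacylglycerol hydrolase (TGH), hydrolyses stored triglyceride and is best known from liver and adipose tissue. Heart muscle keeps triglyceride in lipid droplets as a reserve of fatty acids, its main fuel, and the lipase usually credited with releasing them there is ATGL, a different enzyme.

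In RefSeq's annotation of GRCm38.p6, the assembly also called mm10, Ces1d is a protein-coding gene on chromosome 8 from 93166072 to 93197804, a span of 31733 bases. It lies in a row of 8 Ces1 genes, from Ces1a to Ces1h, between 93020214 and 93379777. Ces1c ends 34788 bases below it and Ces1e starts 3413 bases above it. The measured transcript is 2004 bases long, and RefSeq lists 1 transcript for the gene. Genes of such a family are alike in sequence, so reads can match more than 1 of them. The estimated count of the Ces1d transcript was a whole number, within 0.001, in 1 of 12 libraries, which shows that some reads were divided with other transcripts in the other 11. The other Ces1 genes were not read, and the level is therefore uncertain by the reads that were shared.

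In control hearts without surgery the Ces1d transcript had estimated counts of 2697 in replicate 1, 2016 in replicate 2 and 2444 in replicate 3. In banded control hearts the estimated counts were 197, 198 and 124 in the same order of replicate numbers. In JP2NT-OE hearts they were 2447, 1829 and 2217 without surgery, and 1815, 1386 and 2314 after banding. All 3 banded control libraries were thus far below each of the other 9. Counting error is small beside this gap: the exact 95% Poisson interval of the lowest count, 124, ran from 103 to 148. Such intervals cover counting error only.

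Scaled to library size with TMM factors, the Ces1d transcript stood at 65.7, 49.6 and 66.4 CPM (counts scaled to a fixed library total) in control baseline replicates 1, 2 and 3. It stood at 4.63, 4.15 and 2.82 CPM in the banded control libraries. The highest banded control library was thus more than 10 times below the lowest control baseline library. JP2NT-OE libraries gave 59.7, 45.8 and 51.2 CPM at baseline. After banding they gave 33.1, 32.5 and 52.2 CPM. Replicate 3 of the banded JP2NT-OE group lay within the range of its baseline group, and the other 2 lay below it.

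**Figure D1:**
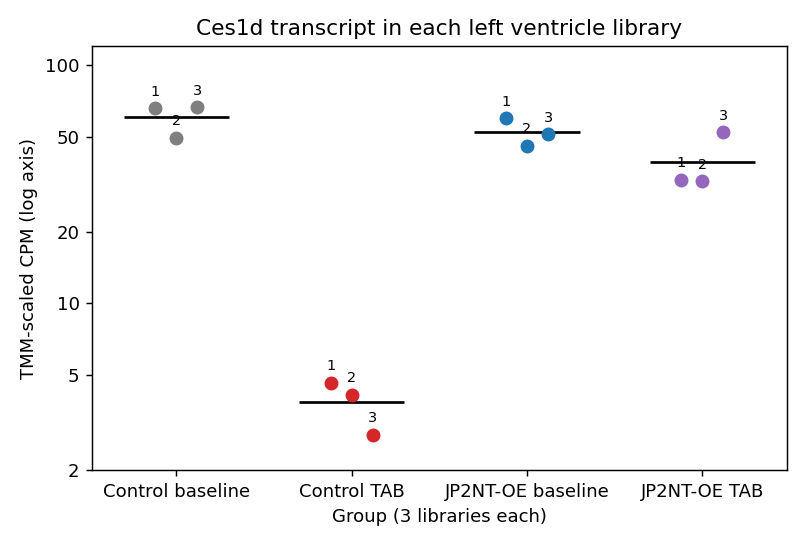
TMM-scaled CPM of the Ces1d transcript (log axis) in each of 12 libraries by group; points are libraries with their replicate numbers, and horizontal bars are group means. The 3 banded control libraries lie between 2.82 and 4.63 CPM, below every other library.

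Ordered by level, the groups were control baseline (60.6 ± 9.51 CPM, SD, n = 3), JP2NT-OE baseline (52.2 ± 7.0), JP2NT-OE TAB (39.3 ± 11.2) and control TAB (3.87 ± 0.940). The first and the second overlapped, and so did the second and the third, there through banded JP2NT-OE replicate 3 alone. Overlap among 3 libraries each does not show that the groups are equal. The third and the fourth did not overlap. On the TPM scale, which corrects for transcript length, the same order held, with 34.1 ± 6.78, 29.4 ± 3.40, 24.5 ± 5.76 and 2.70 ± 0.686 TPM.

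Among all transcripts of a library, the Ces1d transcript was a fairly abundant one in every group but banded controls. Ranked by TPM, with 1 as the highest, it stood between 1378 and 1891 in control baseline libraries. Its rank was between 13468 and 17821 in banded control libraries. In JP2NT-OE its rank ran from 1604 to 2029 at baseline and from 1805 to 2801 in banded libraries. Between 56066 and 59547 transcripts had a TPM above 0 in a library.

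Banding in controls left 6.39% of the baseline level of the Ces1d transcript, as a ratio of group means in CPM. Over the 9 possible ratios of a banded to a baseline control library, the level left ran from 4.25% to 9.35%. The fitted log2 fold change was -3.97 (SE 0.25, 95% interval -4.53 to -3.41), where the median of all tested transcripts was 0.01. In the edgeR fit, 8.6% of the tested transcripts were called changed in this comparison at an adjusted p under 0.05. A minimum abundance, an average log2 CPM of 1 or more over the 12 libraries, was met by 18617 transcripts, and 1 of these had a lower fitted value. Over all 43256 tested transcripts, the value of Ces1d was the 332nd from the lowest. Of 9121 transcripts with at least 10 CPM in control baseline hearts, 2 had a smaller share left after banding, and the median share left was 96.7%.

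In JP2NT-OE hearts 75.2% of the baseline level of the Ces1d transcript was left after banding. The 9 ratios of a banded to a baseline library ran from 54.5% to 114%, and in 7 of them the banded library was the lower one. The fitted log2 fold change was -0.41 (SE 0.22, 95% interval -0.89 to 0.07), an interval that spans 0.538-fold to 1.05-fold. This value leans on 1 library: without banded JP2NT-OE replicate 3 it was -0.67 (SE 0.20), and the other 2 libraries held a mean of 32.8 CPM, 62.8% of the baseline mean. Banding called 0.238% of the tested transcripts in JP2NT-OE.

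Without surgery, levels of the Ces1d transcript overlapped between the genotypes. JP2NT-OE hearts held 86.2% of the control mean, and single libraries of the 2 genotypes had ratios from 68.9% to 120%. The fitted log2 fold change was -0.21 (SE 0.22, 95% interval -0.70 to 0.27). The interval spans 0.617-fold to 1.20-fold, with the spread estimated over all 12 libraries, and it does not show that the levels are equal. In this comparison 0.00694% of the tested transcripts were called.

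After banding, the mean level of the Ces1d transcript in JP2NT-OE hearts was 10.2 times that in controls. Each of the 9 pairs of banded libraries had the higher level in JP2NT-OE, by a log2 difference of 2.80 to 4.19. The fitted log2 fold change was 3.34 (SE 0.25, 95% interval 2.80 to 3.89), the highest of the 18617 transcripts with the minimum abundance and the 359th from the highest of all 43256 tested. This comparison called 0.451% of the tested transcripts. Without banded JP2NT-OE replicate 3, the mean of the other 2 libraries was still 8.48 times the control mean.

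The interaction, that is the JP2NT-OE banding effect minus the control one, is the value for which the Ces1d transcript was taken up. It was 3.56 on the log2 scale (SE 0.32, 95% interval 2.84 to 4.28), higher in JP2NT-OE than in control. It ranked second from the highest among transcripts of the minimum abundance, behind one at 4.07, and 639th among all 43256. In edgeR this comparison called 0.00231% of the tested transcripts, that is 1 transcript, Ces1d. The call is no test of a transcript chosen for this pattern. How many transcripts this comparison calls depends on the tool: 1 with edgeR, 677 with DESeq2, 10 and 11 with limma on TPM with pseudocounts of 1 and 0.1. The call of Ces1d was also lost in 6 of the 12 edgeR fits without 1 library. The libraries whose removal ended it were replicates 1 and 3 of control baseline, 2 and 3 of JP2NT-OE baseline, and 1 and 2 of control TAB. The value itself ran only from 3.30 to 3.71 over those 12 fits. The comparisons share libraries: banded controls enter the control banding effect, the genotype difference after banding and the interaction, so these 3 values are not separate pieces of evidence.

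**Figure D2:**
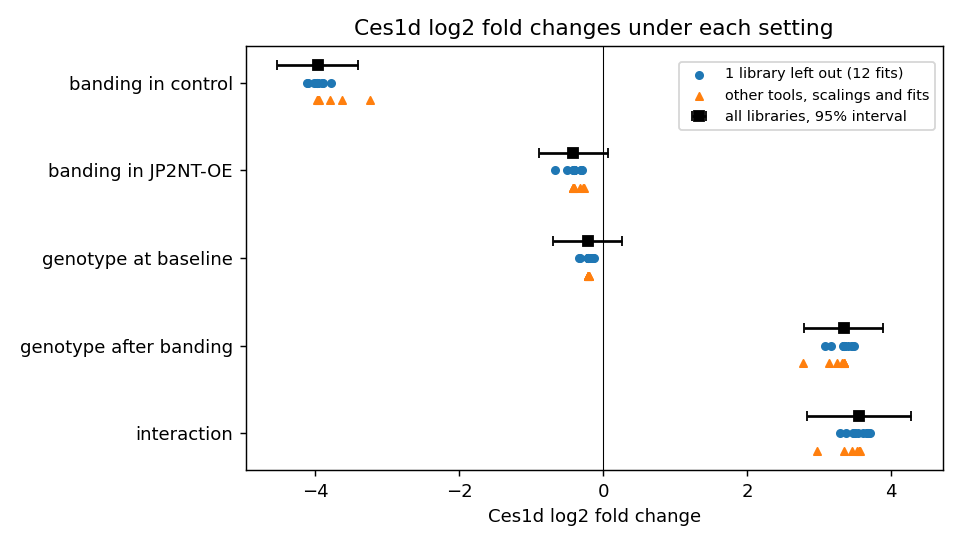
Log2 fold change of the Ces1d transcript (horizontal axis) in 5 contrasts; squares with bars are the fit to all 12 libraries with its 95% interval, circles are fits without 1 library and triangles are other tools, scalings and fits. All values for banding in control lie at -3.24 or below, and all values of the interaction lie at 2.98 or above.

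The fall in banded controls did not rest on how libraries were scaled. With library totals in place of TMM factors, 7.24% of the level was left in controls and 79.9% in JP2NT-OE, and in TPM these shares were 7.91% and 83.5%. The 20 most abundant transcripts took 42.1% ± 1.36 of counts in control baseline and 34.9% ± 0.310 in banded control libraries (SD, n = 3). Library totals ranged from 37662212 to 53097801 estimated counts and overlapped among the groups. The effective length used for TPM implies a mean fragment length of 162 to 164 bases in control baseline and 166 to 167 in banded control libraries, and of 161 to 163 and 164 to 166 bases in JP2NT-OE. Banded libraries thus had slightly longer fragments within each genotype, but the effective length of the Ces1d transcript stayed between 1838 and 1844 bases in all 12.

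The Ces1d transcript varied more between replicates than most transcripts of its abundance. Its biological coefficient of variation in the edgeR fit was 0.194. Of 2893 transcripts within 0.5 of its mean log2 CPM, the median was 0.0912 and 92.3% had a lower value than Ces1d. Within groups, the coefficient of variation in CPM was 15.7% in control baseline, 13.4% in JP2NT-OE baseline, 24.3% in banded control and 28.5% in banded JP2NT-OE libraries.

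The banded JP2NT-OE library that stood apart in Ces1d also stood apart on the first principal component of all tested transcripts. The first principal component of log2 CPM over the 43256 tested transcripts, which held 16.2% of the variance, put banded libraries above baseline ones. Banded JP2NT-OE replicate 3, with 52.2 CPM of Ces1d, stood at 15.3 on it, and replicates 1 and 2, with 33.1 and 32.5 CPM, stood at 44.3 and 51.7. Among the 3 banded JP2NT-OE libraries, the one nearest to baseline on the component thus held the most Ces1d. Banded controls stood between 86.6 and 94.9, and among them the library with the least Ces1d, replicate 3, stood lowest on the component. Whether the level of Ces1d and this position are related within a group was not tested, with 3 libraries each.

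**Figure D3:**
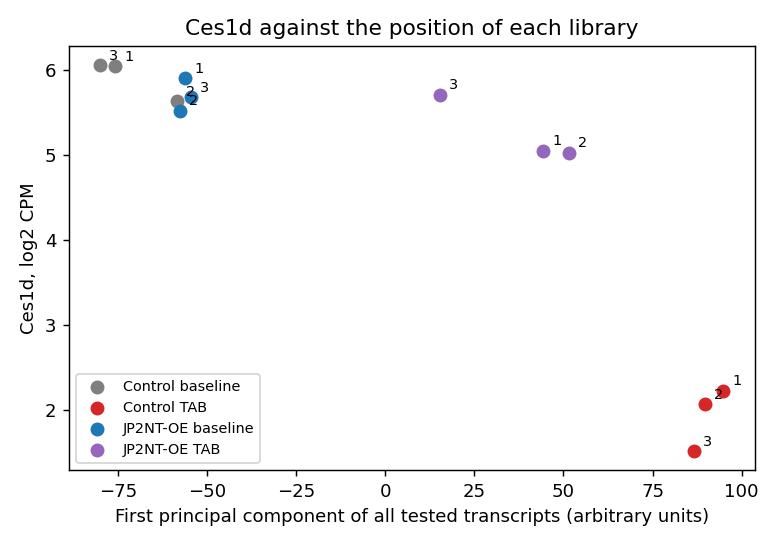
Log2 CPM of the Ces1d transcript (vertical axis) against the first principal component of all tested transcripts (horizontal axis, arbitrary units) in 12 libraries, colored by group and numbered by replicate. Banded JP2NT-OE replicate 3, at 15.3, lies nearest to the baseline libraries on both axes, and the 3 banded controls stand apart at the lower right.

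The left ventricle holds several cell types, and in bulk RNA fewer cells of a type and less RNA per cell cannot be told apart. The labelled tissue was not checked against its markers, and neither were markers of other cells, because the 11 lists of cell type markers and the 7 lists of related genes (other carboxylesterases, lipid droplet enzymes, fatty acid oxidation and others) need gene names.

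Among the 18617 transcripts of the minimum abundance, steep falls with banding and no overlap were few in controls. In most of them a part of the fall was seen in JP2NT-OE as well. Including the Ces1d transcript, 30 transcripts of the minimum abundance had a fitted log2 fall of at least 2 in controls with no overlap between banded and baseline libraries. Of these, picked for steep falls, 23 were called in the control comparison by edgeR, which called 8.6% of all tested transcripts. Ces1d had the second largest fall of the 30, and 1 other had at least its level in control baseline hearts. The banding effects of the 30 in JP2NT-OE had a median of -0.97, with quartiles of -1.31 and -0.66. The control comparison uses none of the JP2NT-OE libraries. The minimum abundance is an average over all libraries, however, so the JP2NT-OE libraries also helped to choose the 30. These transcripts were picked for steep control falls as well, and the part of this choice in their smaller JP2NT-OE falls was not tested. Of the 30, 14 lay below -1 in JP2NT-OE and 3 fell there by 2 or more on the log2 scale. Over all 18617 transcripts of the minimum abundance, the lowest 1% in JP2NT-OE lay at -0.93 or below. Ces1d lay at the upper end of the 30 with -0.41, and 3 of the 29 others lay higher still, each with a smaller fall in controls. The transcript with a larger fall in controls than Ces1d had a log2 fold change of -5.43 there and -3.56 in JP2NT-OE.

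**Figure D4:**
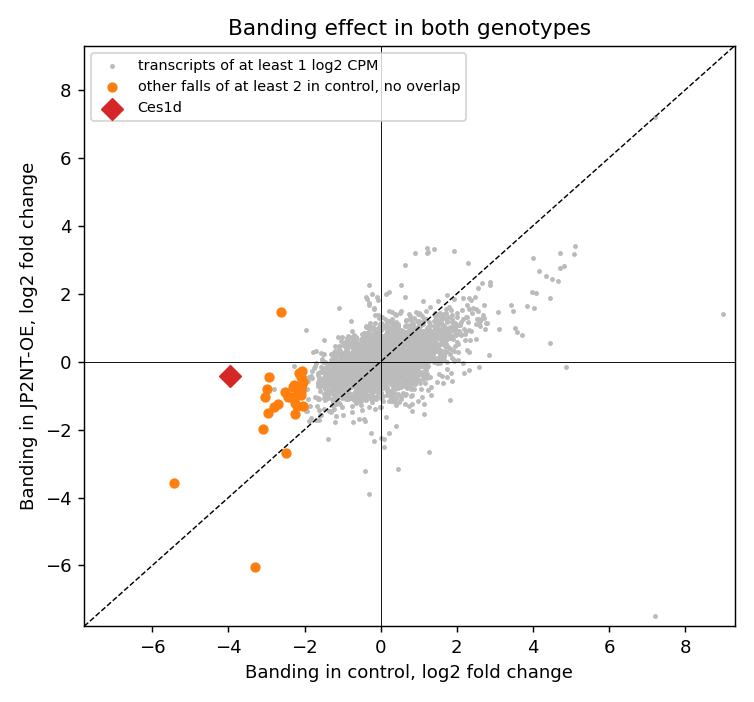
Log2 fold change with banding in JP2NT-OE (vertical axis) against that in control (horizontal axis) for the 18617 transcripts of the minimum abundance; orange points are the 29 other transcripts that fell by at least 2 in control without overlap, and the red diamond is Ces1d. The dashed line marks equal effects, and Ces1d lies far above it at -3.97 and -0.41.

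The transcripts most like Ces1d over the 12 libraries were also lowest in banded controls, with far smaller changes. Likeness was the Pearson correlation of log2 CPM with that of the Ces1d transcript, among 18616 other transcripts of the minimum abundance, and it is a description with no p because the libraries fall into 4 groups and share their depth. The 10 highest correlations ran from 0.968 to 0.984, where the median over all candidates was 0.02, and 312 candidates were above 0.9. In all 10, each banded control library was below the other 9 libraries, a pattern shared by 7.56% of the transcripts of this abundance. Control banding effects of the 10 ran from -1.48 to -0.30 on the log2 scale, with a median of -0.73, and those in JP2NT-OE from -0.38 to -0.03, with a median of -0.15. The order of the 4 group means was that of Ces1d in 9 of the 10, which the choice by correlation favours. How many of all candidates share this order was not counted. Interaction values of the 10 ran from 0.27 to 1.28, compared with 3.56 for Ces1d.

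The closest transcript, ENSMUST00000033541.4 (Pearson 0.984), stood at 92.8 ± 1.49 CPM in control baseline and 75.3 ± 0.703 in banded control libraries (SD, n = 3). JP2NT-OE libraries held 90.3 ± 1.42 at baseline and 88.5 ± 1.52 CPM after banding. Its log2 fold change with banding in controls was -0.30 (SE 0.04), over 10 times smaller on that scale than the value of Ces1d. The next, ENSMUST00000124016.7 (Pearson 0.980), went from 8.02 ± 1.47 to 2.87 ± 0.362 CPM in controls and from 7.73 ± 0.416 to 6.71 ± 0.822 CPM in JP2NT-OE. It had the steepest control fall of the 10, at -1.48 on the log2 scale (SE 0.16). The files do not pair these IDs with gene names, so the other 8 are given by their ranges only.

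Likeness came mostly from the group means. With each group's mean removed, the correlations of the 10 with the Ces1d transcript ran from -0.12 to 0.76. Ranking by Spearman's correlation in place of Pearson's gave a list that shared 0 of the 10, and leaving out 1 library at a time kept 4 to 9 of them. The membership of this list is therefore loose, while the pattern it stands for, lowest in banded controls, is fixed by the choice.

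**Figure D5:**
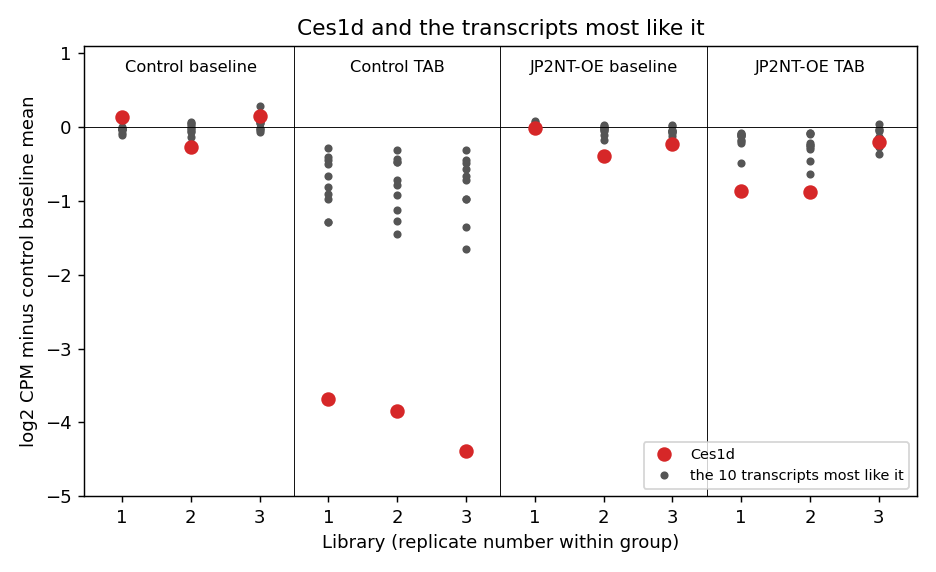
Log2 CPM minus the mean of the control baseline group (vertical axis) for the Ces1d transcript (red) and the 10 transcripts most like it (grey) in 12 libraries grouped by genotype and operation, with replicate numbers on the horizontal axis. In banded controls the 10 lie well above Ces1d, whose control banding effect is -3.97 compared with -1.48 to -0.30 for them.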

How the data were processed

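For each library the authors deposited 1 table of 96626 transcripts, holding length, effective length, estimated count and TPM, per the file headers. The deposited estimated counts divide reads among matching transcripts, and the deposited TPM values are corrected for effective length and carry no depth. Lengths are in bases, per the file headers. Per the submitters' processing notes, the tools were kallisto 0.42.5, cutadapt 1.8.1, FastQC 0.11.3, MACS 1.4.2 and Bowtie2 2.2.5, and the build mm10, with no roles stated. The transcript annotation is not given in the sources used here.

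Estimated counts were rounded and fitted with edgeR 4.0.16 (R 4.3.3) over all 12 libraries: filterByExpr by group kept 43256 transcripts, libraries were scaled with TMM factors, and 1 mean per group left 8 residual degrees of freedom. Calls are quasi-likelihood tests at a Benjamini-Hochberg adjusted p under 0.05 over all tested transcripts. Log2 CPM used a prior count of 2. Standard errors are the fold change divided by the root of its F statistic. limma 3.58.1, DESeq2 1.42.0, other scalings, no filter, a replicate block and fits without each library were alternatives. The fit was tested on simulated data. Named are Ces1d and the 10 transcripts most correlated with it among those averaging 1 or more in log2 CPM, of which 2 IDs are printed, a restriction made because IDs have no gene names here. Gene lists and marker lists, and sums per gene, need such names and were not used here. The transcript, the lists and the rules were chosen with earlier results of these data known.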

Additional observations from a re-analysis of the deposited data

Results flagged for a closer look

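The effect of banding on the Ces1d transcript differed between the genotypes by 3.56 on the log2 scale (SE 0.32, n = 3 libraries in each of 4 groups), with -3.97 in control and -0.41 in JP2NT-OE hearts. It is listed as a difference between groups in their response to banding. The transcript was chosen for this difference, so passing a threshold on it was fixed by the choice, no test of it is given, and the listing adds no support.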

How the results depend on the processing

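The Ces1d log2 fold changes kept their sign under every alternative run. They moved beyond the pooled spread of replicates (0.31) only with limma on log2(TPM + a pseudocount). There, banding in control was -3.24 with a pseudocount of 1 and -3.62 with 0.1. With 1, the genotype difference after banding was 2.78 and the interaction 2.98. TPM carries no TMM factors, and without a pseudocount it left 7.91% of the level in banded controls, compared with 6.39% in CPM. A pseudocount also shrinks folds at low TPM, and the shares of scale and pseudocount in these moves were not tested. Without 1 library, the ranges were -4.12 to -3.79 for banding in control, -0.67 to -0.29 for banding in JP2NT-OE, -0.34 to -0.13 for genotype at baseline, 3.08 to 3.49 for genotype after banding and 3.30 to 3.71 for the interaction. The numbers of transcripts called, used only as background, were far less stable, and the cause was not tested. Banding in control called 3722, and 8387 and 7903 with limma (pseudocounts 1 and 0.1), 2401 with 6 libraries only and 2231 to 3663 without 1 library. Banding in JP2NT-OE called 103, and 1608 with DESeq2, 195 with library totals, 33 without a filter, 536 and 591 with limma, 4 with 6 libraries and 3 to 407 without 1 library. Genotype at baseline called 3, and 129 with DESeq2, 7 with limma at 0.1, 1 with 6 libraries and 0 to 8 without 1 library. Genotype after banding called 195, and 1385 with DESeq2, 98 without a filter, 416 with limma at 1, 0 with 6 libraries (edgeR, 3875 at an unadjusted p under 0.05) and 16 to 112 without 1 library. The interaction called 1, and 677 with DESeq2, 10 and 11 with limma and 0 to 8 without 1 library. A replicate block gave a Ces1d interaction of 3.54 and called 0 transcripts for banding in JP2NT-OE, 0 for genotype at baseline, 15 for genotype after banding and 0 for the interaction (edgeR, 4817, 1677, 4234 and 3448 at an unadjusted p under 0.05). Whether replicate numbers pair the libraries is not known. Of 18 correlations of deviations between same-numbered libraries, 0 exceeded 0.1. Differently numbered libraries were not compared, so these values cannot exclude a pairing. Sums per gene were not run.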
